A study of Mus musculus with 14 samples.

Results

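The genes described here are 9 components of the classical and alternative complement pathways, C1qa, C1qb, C1qc, C1ra, C1s1, C2, C4b, Cfb and Cfp, out of 21853 genes with a deposited value. They were chosen by name and not by a rule on their values in the compared libraries, but with earlier results of these data known. All 9 passed the filter on low values, a mean of at least 0.5 FPKM (fragments mapped to a transcript, scaled for its length and for the fragments of the library), in each tissue. RNA-seq had been made from the ovary and the uterus of 3 OC (old control) and 4 OT (old treatment) mice, 14 libraries in 4 groups. All 7 were female C57BL/6J mice of 28 weeks. The OT mice had received human AMSC-CM, the conditioned medium of mesenchymal stem cells from the amniotic membrane of 3 donors, mixed and concentrated, through the tail vein in 6 injections at 4-day intervals and 1 µL per g of body weight, and the OC mice had received normal saline. Mice of both groups had been given pregnant mare serum gonadotropin and then human chorionic gonadotropin, 10 IU of each, with 48 h between them, before the treatment. The medium was compared with saline and not with unconditioned medium, so an effect of the secreted factors and of the medium itself cannot be told apart.

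Complement is a cascade of plasma and tissue proteins that tags microbes, immune complexes and dying cells for removal. In the classical pathway, C1q binds its target and activates the proteases C1r and C1s, which cut C4 and C2 to form an enzyme that cleaves C3. In the alternative pathway, factor B joins C3b to form a second C3-cleaving enzyme, and properdin stabilises it. Tissue macrophages are the main source of C1q, whereas fibroblasts and other stromal cells make C1r and C1s, and the components also take part in tissue remodelling in the ovary and the uterus.

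The genes lie in 4 places of the mouse genome (build GRCm38). C1qb, C1qc and C1qa stand in this order on the minus strand of chromosome 4 between 136880129 and 136898803, with 3616 bases between C1qb and C1qc and 2851 bases between C1qc and C1qa. C1ra (chr6:124512405-124523443, plus strand) and C1s1 (chr6:124530345-124542359, minus strand) are 6901 bases apart. Cfb (chr17:34856374-34862518) and C2 (chr17:34862604-34898265) share the minus strand of the class III region of the major histocompatibility complex with only 85 bases between them, and C4b (chr17:34728380-34743882, minus strand) is 112491 bases from Cfb. Cfp lies apart from the others, on chromosome X between 20925454 and 20931555. All 9 are annotated as protein-coding.

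Bases upstream of a RefSeq transcription start (table of build GRCm38.p6) were on hand for 5 of the 9 genes, C1qb, C1qc, C1ra, C1s1 with 2 starts, and Cfp. A window of 250 bases before each start was searched on both strands for 7 motifs, and 3 of the 6 windows held a match. These 3 are printed 5′ to 3′ on the strand of the gene, to show where the matches fall in 2 of the C1q genes, whose levels went together, and in C1s1, whose fitted change was nearest 0. For C1qc, only the 99 bases outside the annotated gene are printed, since the other 151 bases of its window overlap the gene. Capitals mark GAGGAA, the core bound by the myeloid factor PU.1, or its reverse complement in C1qb and C1qc, and TTGCNNAA (C/EBP) on the reverse strand in C1s1.
C1qb (chr4:136886201-136886450, minus strand): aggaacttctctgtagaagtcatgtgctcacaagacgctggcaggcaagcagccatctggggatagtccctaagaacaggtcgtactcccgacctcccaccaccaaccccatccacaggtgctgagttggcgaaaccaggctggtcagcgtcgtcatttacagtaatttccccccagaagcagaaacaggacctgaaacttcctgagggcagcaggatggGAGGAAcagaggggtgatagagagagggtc
C1qc (chr4:136893066-136893164, minus strand): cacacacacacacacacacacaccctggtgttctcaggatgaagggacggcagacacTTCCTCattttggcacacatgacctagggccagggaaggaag
C1s1 (chr6:124542360-124542609, minus strand): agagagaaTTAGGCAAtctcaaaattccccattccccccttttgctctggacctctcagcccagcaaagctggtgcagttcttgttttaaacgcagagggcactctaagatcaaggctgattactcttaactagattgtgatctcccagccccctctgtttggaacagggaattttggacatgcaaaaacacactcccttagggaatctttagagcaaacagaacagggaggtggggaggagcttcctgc
The GAGGAA match began 30 bases before the start in C1qb and 193 bases before it in C1qc. It was held by 23.3% of all 32851 promoter windows. TTGCNNAA was held by 9.56% of the windows. The windows of the 5 genes held no match to TTCNNNGAA (GAS, an interferon gamma activated site), to the interferon stimulated response element, to the NF-kB site, to TGCTGAC (bound by Maf factors) or to TATAAA (the TATA box). The C1ra window (chr6:124512371-124512620) lay mostly within the annotated gene, which starts at 124512405. The other C1s1 window (chr6:124542322-124542571) overlapped its gene in part. Of all windows, 7.02% held the GAS letters, 2.98% the interferon stimulated response element, 0.356% the NF-kB site, 3.81% TGCTGAC and 12.4% TATAAA.

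The levels of some genes depend on how fragments were shared with near copies. C1qa, C1qb, C1qc and Cfp shared no 50-base stretch of transcript with another gene. Of the C1ra stretches, 50.8% also occurred in another gene, mostly C1rb, and 21.8% of the C1s1 stretches occurred in C1s2. C1rb was at most 0.269 FPKM and C1s2 lay between 0.217 and 1.40 FPKM in the 14 libraries. Cfb shared 73.0% and C2 38.7% of their stretches with Gm20547, an annotated gene that runs through both and that was at most 0.280 FPKM. C4b shared 34.6% with its copy C4a, which has no value among the deposited genes, so its level is unknown. The levels of C1ra, C1s1, C2, Cfb and C4b are uncertain to that extent.

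All 9 genes were well above the filter in both tissues. In the ovary, the mean over the 7 libraries was 76.3 ± 18.0 FPKM for C1qa, 74.7 ± 9.29 for C1s1, 64.6 ± 11.2 for C1qb and 63.2 ± 14.2 for C1qc (SD, n = 7). C2 (27.7 ± 5.14), C4b (24.5 ± 10.1) and C1ra (22.4 ± 2.37) followed, and Cfp (13.2 ± 3.15) and Cfb (9.18 ± 5.45) were lowest. In this order only the steps from C1qc to C2 and from C1ra to Cfp were larger than the summed SDs of the genes on either side. In the uterus, C1s1 (131 ± 26.2 FPKM) led C1qa (105 ± 56.2), C1qb (90.3 ± 47.1) and C1qc (79.1 ± 46.3), and C4b (52.8 ± 24.7), Cfb (40.0 ± 27.2), C1ra (34.8 ± 10.3), Cfp (19.2 ± 10.0) and C2 (17.9 ± 10.5) followed. No step between neighbours in the uterus was larger than their summed SDs. Cfb thus went from the lowest place in the ovary to the sixth in the uterus, while C2 went from the fifth to the lowest.

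**Figure D1:**
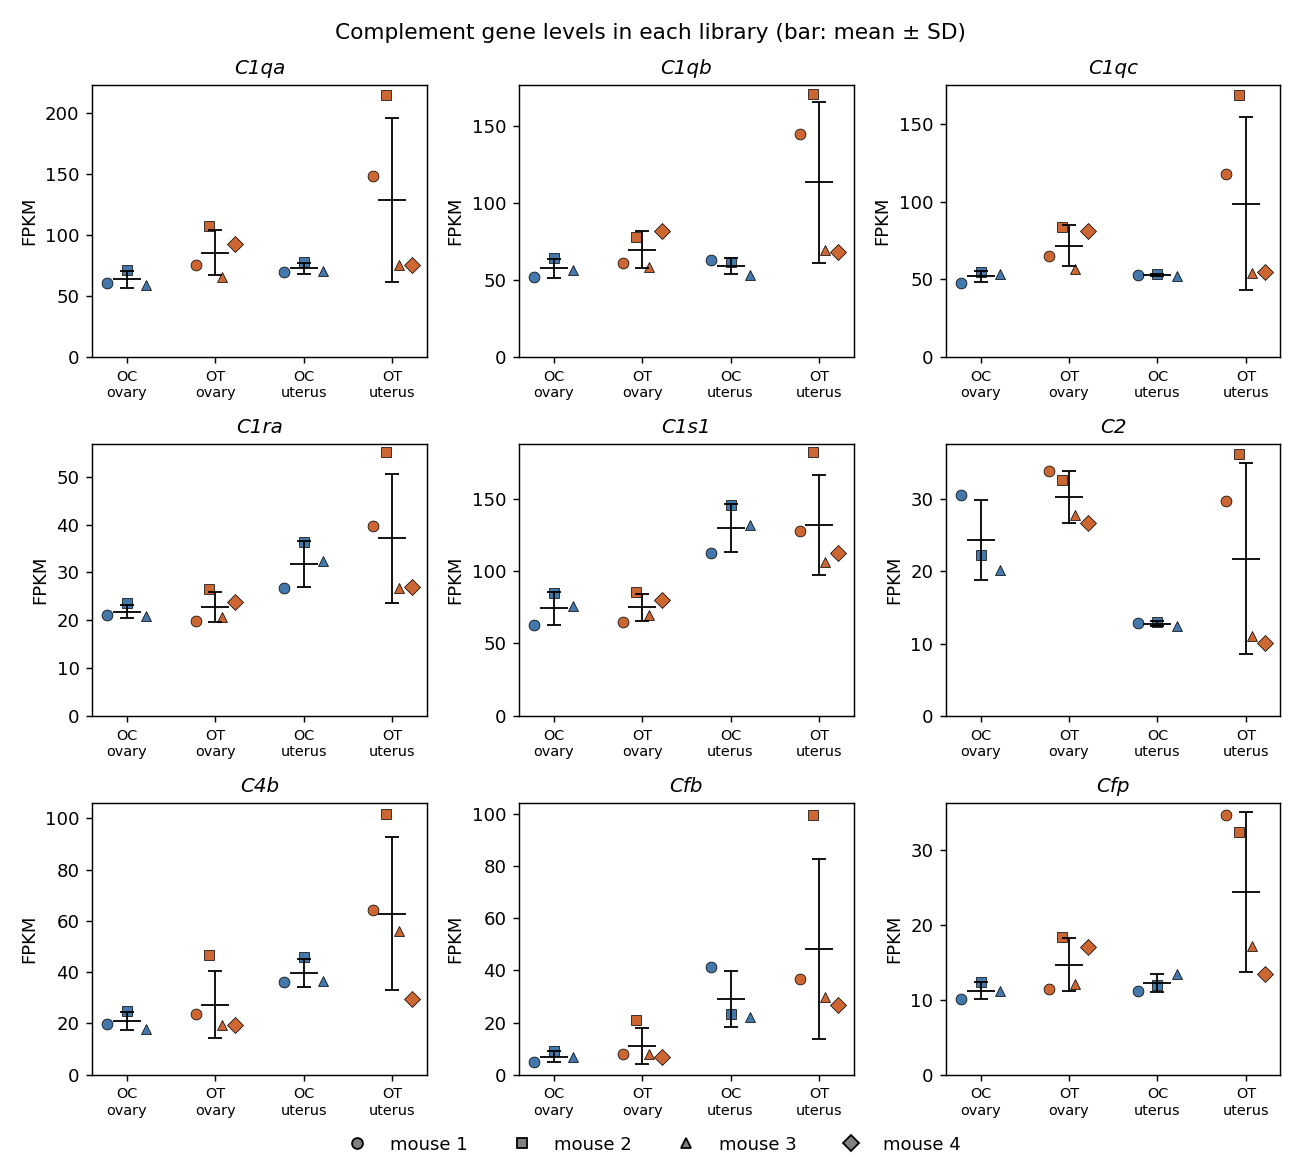
Level of each gene in FPKM (vertical axis, from 0) in the OC and OT libraries of the ovary and the uterus. Each point is a library, its shape gives the mouse number within its group, and bars give mean ± SD. The OT uteruses of mice 1 and 2 stand above the OT uteruses of mice 3 and 4 in all 9 panels, while the OC libraries of a tissue lie close together for most genes.

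C1qa, C1qb and C1qc encode the 3 chains of C1q, the recognition part of the first component. In the OC ovaries, C1qa was at 60.6, 71.6 and 58.9 FPKM in OC1, OC2 and OC3, and in the OT ovaries it was at 75.8, 108, 66.1 and 92.7 FPKM in OT1 to OT4. C1qb was at 52.3, 64.1 and 56.4 FPKM in the OC ovaries and at 61.3, 78.1, 58.3 and 81.8 FPKM in the OT ovaries. C1qc was at 47.6, 54.8 and 53.4 FPKM in the OC ovaries and at 65.3, 83.9, 56.5 and 81.1 FPKM in the OT ovaries. For each chain the highest libraries were OT2 and OT4, and OT3 was the lowest OT library. The groups did not overlap for C1qc, whereas the lowest OT ovary was below OC2 for C1qa and C1qb. Of all genes tested in the ovary, 2.78% had every OT library above every OC library and 3.13% every OT library below. The log2 fold change of OT over OC was 0.41 (SE 0.16) for C1qa, 0.27 (SE 0.13) for C1qb and 0.45 (SE 0.14) for C1qc. By limma, unadjusted p was 0.0332, 0.0778 and 0.0106, and the adjusted p was 0.997 for each, so no chain passed a test over all genes. The exact permutation test of C1qc gave p = 0.0571, two-sided, the smallest that 3 against 4 libraries allow.

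In the uterus the OC levels of C1q were close together and the OT levels were split. C1qa was at 69.5, 78.2 and 70.9 FPKM in OC1 to OC3 and at 149, 215, 75.7 and 75.6 FPKM in OT1 to OT4. C1qb was at 63.1, 61.6 and 53.4 FPKM in the OC uteruses and at 145, 171, 69.9 and 68.4 FPKM in the OT uteruses. C1qc was at 52.7, 53.7 and 52.2 FPKM in the OC uteruses and at 118, 169, 53.8 and 54.8 FPKM in the OT uteruses. OT1 and OT2 were far above the OC range for all 3 chains. OT3 and OT4 lay just above it for C1qb and C1qc, whose groups did not overlap, and within it for C1qa. Groups did not overlap in this direction for 6.46% of the genes tested in the uterus, and in the other for 5.48%. On the log2 scale OT differed from OC by 0.68 (SE 0.36) for C1qa, 0.82 (SE 0.34) for C1qb and 0.73 (SE 0.40) for C1qc. Unadjusted p by limma was 0.10, 0.0432 and 0.103, with an adjusted p of 0.625, 0.599 and 0.625. The exact permutation p was 0.0571 for C1qb and C1qc and 0.171 for C1qa. Without OT3 the log2 fold change of C1qb was 1.01 and without OT4 it was 1.02, past the fold of 2 that a call requires. Over each replicate left out in turn, uterine C1qb ran from 0.58 to 1.02, C1qa from 0.38 to 0.88 and C1qc from 0.41 to 0.96.

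The 3 chains kept a similar proportion to each other in all libraries. C1qa stood to C1qb as 1.17 ± 0.11 (SD, n = 14, from 1.03 to 1.38) and C1qc to C1qb as 0.919 ± 0.097 (from 0.770 to 1.07), while their summed level ran from 161 FPKM in OC1 ovary to 555 FPKM in OT2 uterus. In the ovary the ratio of C1qc to C1qb ran from 0.855 to 0.946 in OC and from 0.970 to 1.07 in OT. That of C1qa to C1qb overlapped there, with 1.04 to 1.16 in OC and 1.13 to 1.38 in OT. In the uterus the groups overlapped for both ratios. No share over all genes was computed for these ratios, and they are given as a description. Pearson's r over the 14 libraries, after the mean of each tissue was taken off the log2 level, was 0.99 between C1qa and C1qc, 0.97 between C1qb and C1qc and 0.96 between C1qa and C1qb. The 14 points share mice between tissues and share the OT1 and OT2 libraries with high levels, and r is given as a description.

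C1ra and C1s1 encode the proteases C1r and C1s that C1q carries. In the ovary, C1ra was at 21.1, 23.5 and 20.9 FPKM in OC1 to OC3 and at 19.8, 26.5, 20.8 and 23.9 FPKM in OT1 to OT4. C1s1 was at 62.4, 85.1 and 75.8 FPKM in the OC ovaries and at 65.0, 85.3, 69.8 and 79.8 FPKM in the OT ovaries. The OC and OT ranges overlapped for both genes. The fitted change was 0.05 (95% confidence interval -0.20 to 0.30) for C1ra and 0.01 (-0.27 to 0.30) for C1s1, with an adjusted p by limma of 0.998 and 0.999.

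In the uterus, C1ra was at 26.8, 36.3 and 32.3 FPKM in OC1 to OC3 and at 39.6, 55.1, 26.7 and 26.9 FPKM in OT1 to OT4. C1s1 was at 112, 146 and 131 FPKM in the OC uteruses and at 127, 182, 106 and 112 FPKM in the OT uteruses. OT2 was above the OC range for both genes and OT1 for C1ra, while OT3 and OT4 lay at or below its lower end. The fitted change was 0.17 (95% confidence interval -0.45 to 0.78) for C1ra and -0.0027 (-0.47 to 0.47) for C1s1. Without OT2, the change of C1ra was -0.024 (ovary) and -0.047 (uterus).

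C4b encodes the C4 that C1s cuts, and C2 encodes the protease that joins the C4 fragment. In the ovary, C4b was at 19.7, 25.0 and 18.0 FPKM in OC1 to OC3 and at 23.6, 46.7, 19.3 and 19.3 FPKM in OT1 to OT4. Only OT2 lay above the OC range. In the uterus, C4b was at 36.2, 45.8 and 36.6 FPKM in the OC libraries and at 64.2, 102, 55.9 and 29.4 FPKM in the OT libraries. Here OT1, OT2 and OT3 were above the OC range and OT4 was below it. The log2 fold change of C4b was 0.29 (SE 0.29) in the ovary and 0.54 (SE 0.37) in the uterus, with an adjusted p by limma of 0.997 and 0.637. Without OT2 the ovarian value was -0.0028.

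C2 was at 30.5, 22.3 and 20.1 FPKM in the OC ovaries and at 33.9, 32.7, 27.8 and 26.6 FPKM in the OT ovaries. OT1 and OT2 were above the OC range, and OT3 and OT4 lay between OC2 and OC1. In the uterus, C2 was at 12.9, 12.97 and 12.4 FPKM in the OC libraries. The OT uteruses were at 29.7, 36.2, 10.99 and 10.02 FPKM, with OT1 and OT2 above the OC range and OT3 and OT4 below it. Its log2 fold change was 0.33 (SE 0.15) in the ovary and 0.54 (SE 0.46) in the uterus, with an adjusted p by limma of 0.997 and 0.690.

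Cfb encodes factor B, the C2-like protease of the alternative pathway. In the ovary, Cfb was at 4.71, 9.18 and 6.86 FPKM in OC1 to OC3 and at 7.74, 21.2, 7.79 and 6.81 FPKM in OT1 to OT4. OT2 was far above the other 6 ovaries, and OT1, OT3 and OT4 lay within the OC range. In the uterus, Cfb was at 41.4, 23.4 and 22.2 FPKM in the OC libraries and at 36.8, 99.6, 29.7 and 26.8 FPKM in the OT libraries. OT2 again stood alone above the OC range. The change of Cfb was 0.53 (SE 0.39) on the log2 scale in the ovary and 0.57 (SE 0.46) in the uterus, and without OT2 it was 0.15 in each tissue.

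Cfp encodes properdin, which leukocytes make and which stabilises the alternative pathway enzyme. Cfp was at 10.2, 12.4 and 11.1 FPKM in the OC ovaries and at 11.4, 18.4, 12.1 and 17.0 FPKM in the OT ovaries. OT2 and OT4 were above the OC range, as for C1q. In the uterus, Cfp was at 11.1, 12.0 and 13.5 FPKM in the OC libraries and at 34.7, 32.3, 17.2 and 13.5 FPKM in the OT libraries. OT1 and OT2 were highest, OT3 was above the OC range, and OT4 equalled the highest OC library to 3 digits. For Cfp the log2 fold change was 0.36 (SE 0.18, unadjusted p = 0.0745 by limma) in the ovary. Its uterine change was 0.89 (SE 0.33, unadjusted p = 0.0291 and adjusted p = 0.569 by limma), 1.02 without OT3 and 1.13 without OT4. Over each replicate left out in turn, this uterine change ran from 0.68 to 1.13.

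A gene was called where OT and OC differed by at least 2-fold with an unadjusted p of at most 0.05. In the ovary, 0 of the 9 genes were called higher or lower, against 0.368% of all 14415 tested genes called higher and 0.0832% called lower. C1qa and C1qc had an unadjusted p under 0.05, 2 of 9, as did 2.6% of all genes in the higher direction. All 9 log2 fold changes lay above 0, as did 46.6% of those of all genes, with a median of 0.33 against -0.01. In the uterus, 0 of the 9 were called, against 2.23% of 14151 genes higher and 0.664% lower. C1qb and Cfp had an unadjusted p under 0.05 (5.15% of all genes, higher), 8 of 9 values were above 0 (51.1% of all genes), and the median was 0.57 against 0.01. When OT3 or OT4 was left out, 2 of the 9, C1qb and Cfp, were called in the uterus. In neither tissue did any of the tested genes have an adjusted p under 0.05 by limma, with 650 ovarian and 1160 uterine genes at an unadjusted p under 0.05. The p-values measure the spread between these mice.

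**Figure D2:**
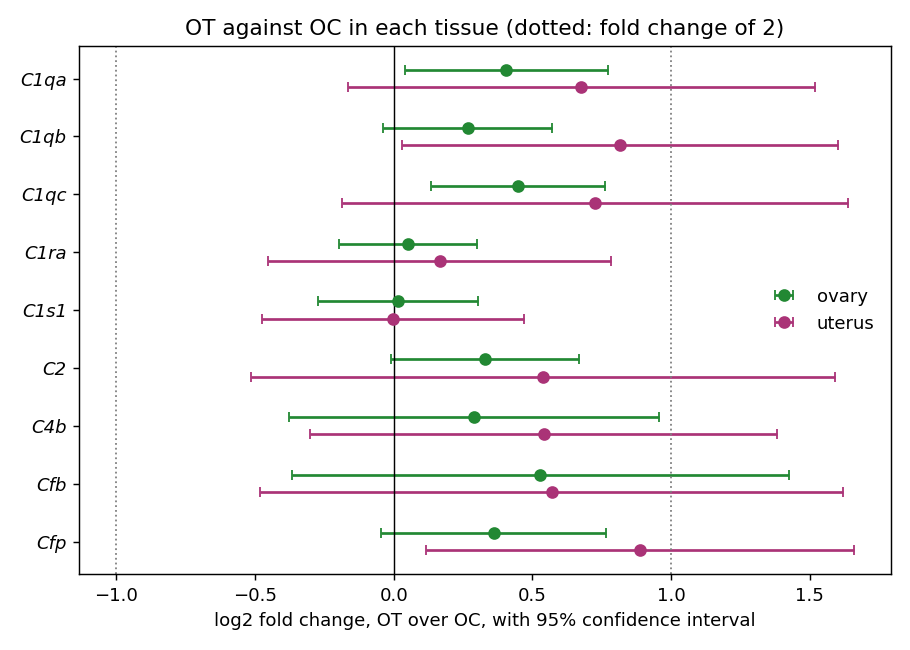
Log2 fold change of OT over OC (horizontal axis) for each gene in the ovary (green, 3 against 4 libraries) and the uterus (purple, 3 against 4), with 95% confidence intervals from limma. Every interval stays above -1, those of C1qa and C1qc in the ovary and of C1qb and Cfp in the uterus lie above 0, and no point reaches the dotted line at a fold change of 2.

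The OT libraries differed among themselves. On the log2 scale, the median distance of the 9 genes from the OC mean in the ovaries OT1 to OT4 was 0.19, 0.69, 0.06 and 0.15. In the uteruses of the same numbers it was 1.03, 1.499, 0.06 and -0.05. The same median over all tested genes stayed between -0.01 and 0.03 in these 8 libraries. OT2 was the highest of the 7 libraries for 7 of 9 genes in the ovary, 8 of 9 in the uterus and 6 of 9 in both. Over all 13653 genes tested in both tissues these shares were 16.1%, 12.6% and 3.38%. OT1 stood high in the uterus for C1q, C2 and Cfp, and its ovary lay nearer the OC level. OT4 showed the opposite, with C1q and Cfp high in the ovary and near the OC level in the uterus. OT3 lay near the OC range in both tissues, with C4b and Cfp in the uterus as the exceptions.

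**Figure D3:**
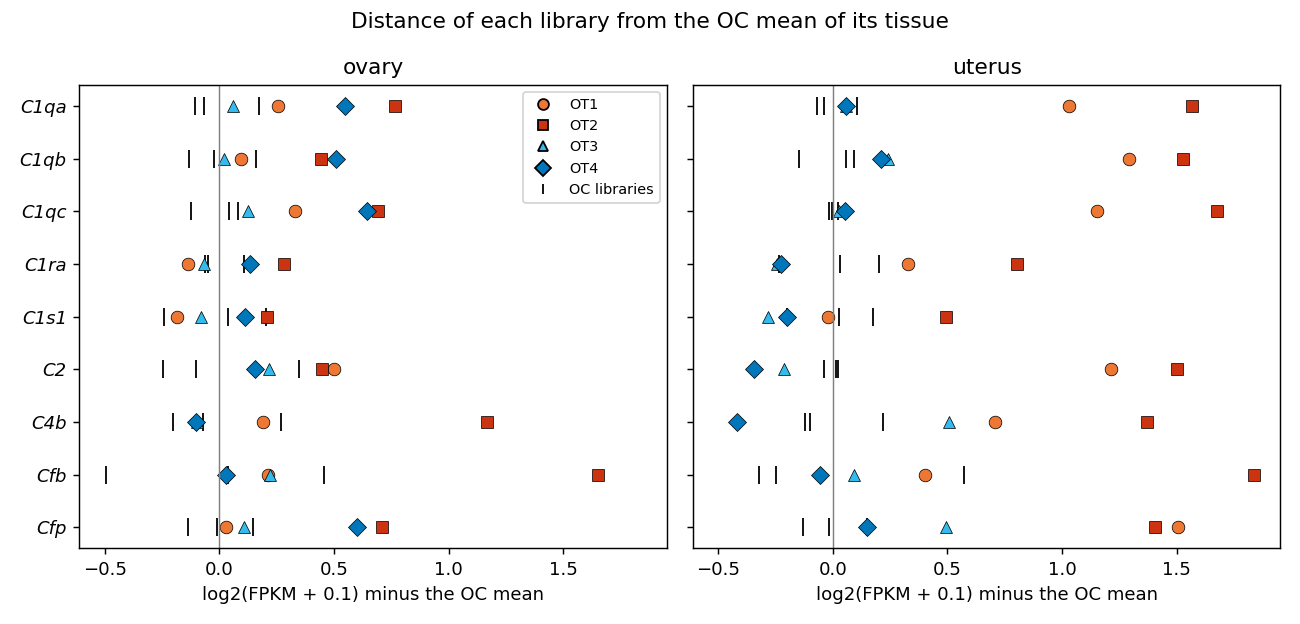
Distance of each library from the OC mean of its tissue on the log2(FPKM + 0.1) scale (horizontal axis), in the ovary (left) and the uterus (right), with the 4 OT mice as coloured points and the 3 OC libraries as ticks. OT2 lies to the right for nearly all genes in both tissues, and OT1 joins it in the uterus for C1q, C2 and Cfp.

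The C1q chains and Cfp were higher relative to C1ra in every OT library than in any OC library, in both tissues. In the ovary, the ratio of C1qa to C1ra was 2.88, 3.05 and 2.82 in OC1 to OC3 and 3.82, 4.07, 3.18 and 3.88 in OT1 to OT4. In the uterus it was 2.59, 2.15 and 2.198 in the OC libraries and 3.75, 3.91, 2.84 and 2.81 in the OT libraries. The ratio of C1qb to C1ra ran from 2.48 to 2.73 in the OC and from 2.81 to 3.42 in the OT ovaries, and from 1.65 to 2.35 in the OC and from 2.54 to 3.66 in the OT uteruses. That of C1qc ran from 2.26 to 2.56 and from 2.72 to 3.39 in the ovaries, and from 1.48 to 1.97 and from 2.02 to 3.06 in the uteruses. That of Cfp ran from 0.482 to 0.532 and from 0.575 to 0.711 in the ovaries, and from 0.331 to 0.418 and from 0.5005 to 0.876 in the uteruses. The groups came closest for C1qc in the uterus and for C1qb in the ovary. The other 4 genes compared with C1ra in this way (C1s1, C2, C4b and Cfb) overlapped between the groups in both tissues, so that 4 of 8 genes were higher without overlap in each tissue and 0 were lower. Over all genes, the ratio to C1ra was higher without overlap for 1.25% in the ovary and lower for 1.98%. In the uterus these shares were 1.71% and 1.7%, and 0.278%, 38 of 13652 genes, were higher in both tissues. A ratio within a library does not depend on the scaling of that library. It was looked at after the values had been seen, rests on the C1ra level with its shared stretches, and is given without a test. The choice of C1ra matters, since C1qa relative to C1s1 was not higher in every OT ovary. C1qa and C1s1 were at 60.6 and 62.4 FPKM in the OC1 ovary, and at 66.1 and 69.8 FPKM in the OT3 ovary. In the uterus, C1ra itself was near the lower end of its OC range in OT3 and OT4. Other ratios to C1s1 are not given here.

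The uterus was set against the ovary in a fit of all 14 libraries, with a mean for each group and no term for the mouse. Cfb was higher in the uterus by 2.07 on the log2 scale (SE 0.33, adjusted p = 0.000167 by limma) and C4b by 1.05 (SE 0.26, adjusted p = 0.00391), and these 2 of 9 genes were called at 2-fold and an adjusted p under 0.05. Of all 14557 genes, 10% were called higher and 9.59% lower in the uterus. C1s1 was higher by 0.80 (SE 0.13, adjusted p = 0.000146) and C1ra by 0.59 (SE 0.15, adjusted p = 0.00576), and C2 was lower, at -0.80 (SE 0.26, adjusted p = 0.0205). In all, 5 of 9 genes had an adjusted p under 0.05, as did 52.9% of all genes. Every uterus was above every ovary for C1s1, C1ra and Cfb, a pattern of 11.5% of all genes. C1qa (0.33), C1qb (0.32), C1qc (0.17) and Cfp (0.38) did not pass the test, and the 95% confidence interval of C1qa ran from -0.14 to 0.80. The difference was above 0 for 8 of 9 genes and for 49.6% of all genes. Since these are whole tissues, a higher level cannot be told apart as more cells of a type or more RNA per cell.

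The ovary and the uterus with the same group and number were taken as those of 1 mouse, so that the difference could be read per mouse. C1ra, C1s1, C4b and Cfb were higher in the uterus in 7 of 7 mice, C1qa in 6, Cfp in 5, C1qb in 4, C1qc in 3 and C2 in 1. An exact paired permutation test gave p = 0.0156 for the first 4, the smallest that 7 mice allow, and 0.0312 for C2. For Cfb the difference ran from 1.34 in OC2 to 3.11 in OC1, and for C2 from -1.40 in OT4 to 0.15 in OT2. C2 and Cfb, neighbours with related products, thus went opposite ways. Their ratio was 3.61 ± 1.58 (SD, n = 7, from 1.54 to 6.48) in the ovary and 0.477 ± 0.174 (from 0.312 to 0.806) in the uterus. The ratio of C1s1 to C1ra differed little, 3.34 ± 0.23 in the ovary and 3.85 ± 0.41 in the uterus. Genes beside C2, Cfb and C4b on chromosome 17, of which 7 of 8 were tested, had differences between the tissues from -0.45 to 1.38 with a median of -0.06. Of the 7, 3 had an adjusted p under 0.05, and 1, Tnxb on the C4b side, was called higher in the uterus, at 1.38 against 1.05 for C4b. 

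**Figure D4:**
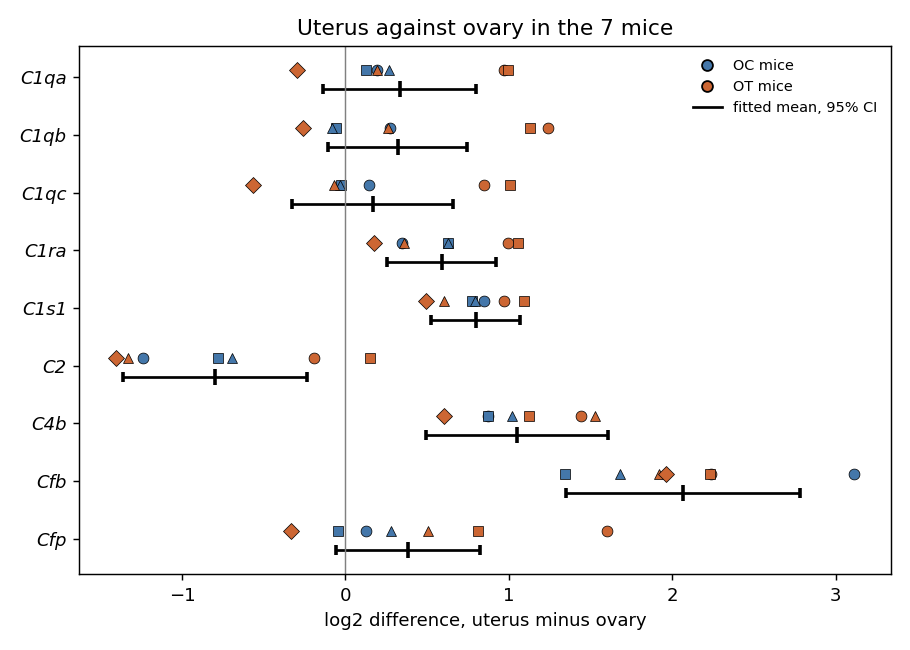
Difference of the uterus from the ovary of the same mouse on the log2 scale (horizontal axis) for each gene, with the 7 mice as points (shape gives the mouse number, colour the group) and the fitted mean with its 95% confidence interval below them. All 7 points are right of 0 for C1ra, C1s1, C4b and Cfb, and 6 of 7 are left of 0 for C2.

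The change between OC and OT was not shown to differ between the tissues for any of the 9 genes. The difference of the changes, uterus minus ovary, ran from -0.02 (C1s1) to 0.55 (C1qb) on the log2 scale, with an adjusted p by limma of at least 0.844. Its 95% confidence interval was -0.31 to 1.41 for C1qb and -0.36 to 1.41 for Cfp, so a larger change in the uterus is within the range of these data. Of the 9 genes 0 were called, against 1.28% of all genes higher and 0.556% lower. None had an unadjusted p under 0.05 (3.22% of all genes, higher), and 8 of 9 differences were above 0, as were 52.1% of those of all genes.

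The genes whose pattern was most like that of C1q were sought among 13644 genes tested in both tissues. After the mean of each tissue was taken off, the highest Pearson's r with the mean log2 level of the 3 chains over the 14 libraries were those of Ptafr (0.95), Ly86 (0.94), Lyz2 (0.94), Hacd4 (0.93) and Cd53 (0.93). Ptafr encodes the receptor of platelet-activating factor, Ly86 (MD-1) a partner of a Toll-like receptor homologue, Lyz2 the lysozyme of myeloid cells and Cd53 a leukocyte tetraspanin. For C1ra and C1s1 they were Igtp (0.93), Iigp1 (0.92), Snx5 (0.92), Ifi209 (0.90) and C3 (0.89), of which Igtp and Iigp1 encode GTPases induced by interferon gamma. None of the genes was in both sets. Among the 9, Cfp was closest to C1q, with r of 0.93 to 0.95, and the lowest r was 0.47, between C1s1 and C2. These r share 14 libraries from 7 mice and are given as a description.

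Most of the listed macrophage markers had a log2 fold change above 0, and not all of them followed C1q by library. All 12 listed genes were tested and none was at 0. Their summed level ran from 182 to 265 FPKM in the OC ovaries, from 258 to 382 in the OT ovaries, from 254 to 313 in the OC uteruses and from 316 to 953 in the OT uteruses, where OT2 (953) and OT1 (467) were highest. Lyz2, which is also among the genes closest to C1q, made up much of the sum, with 652 FPKM in the OT2 uterus and 104 FPKM in the OC1 ovary. Without Lyz2 the sum was 77.8 to 99.3 FPKM in the OC and 91.8 to 137 in the OT ovaries, which overlapped, and 135 to 151 and 154 to 302 in the uteruses. Of the 12, 10 had a log2 fold change above 0 in each tissue, with medians of 0.44 (ovary) and 0.59 (uterus). None was called in the ovary and 1 in the uterus, Cd163 (1.39), and 3 of 12 had an unadjusted p under 0.05 in each tissue. Cd14 and Mertk had values below 0 in both. Cd14 was at 15.7 FPKM in the OT1 uterus, where C1q was high, against 33.2 to 38.5 FPKM in the OC uteruses. Adgre1 was at 28.1 FPKM in the OT4 uterus, where C1q was near the OC level, against 11.5 to 14.02 FPKM in the OC uteruses. Aif1 and Ms4a7 were higher in the OT4 than in the OT1 uterus. Csf1r, Cd68, Mrc1 and Siglec1 followed C1q, above the OC range in the OT1 and OT2 uteruses and lower in OT3 and OT4. Csf1r was at 40.1, 67.3, 27.4 and 25.4 FPKM in the uteruses OT1 to OT4, against 22.2 to 30.2 FPKM in OC. Relative to C1ra, 2 of 12 markers were higher in every OT than in every OC ovary (Csf1r and Lyz2), against 1.25% of all genes. In the uterus 4 of 12 were (the same 2, Adgre1 and Aif1), against 1.71% of all genes. The other 8 of 12 were not in either tissue. The part of macrophage number in the C1q and Cfp levels was not tested.

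Other markers also differed between the OC and OT uteruses. The summed level of 8 adipocyte genes was 54.0 to 184 FPKM in the OC and 659.9 to 6226 FPKM in the OT uteruses, with all 8 called higher, none at 0, and 119.8 to 194 against 150.5 to 987 FPKM in the ovaries, with 4 called higher. The highest uterus was OT1, and the lowest OT uterus by these markers was OT2, where C1q was highest. The summed level of 8 genes of stratified epithelium, among them Krt5, Krt13 and Krt4, was 2.93 to 13.9 FPKM in the OC and 45.1 to 802 FPKM in the OT uteruses. Of these genes 7 were called higher, and the sum was again lowest in OT2 among the OT uteruses. The 8 fibroblast genes ran from 4715 to 4777 FPKM in the OC and from 4515 to 6327 FPKM in the OT uteruses, and from 1102 to 1976 and 1074 to 1650 FPKM in the ovaries, with none called. Of 8 neutrophil genes, 5 were tested in each tissue and none was called, and at least 1 was listed at 0 in every library of a group. Ltf, which the uterine epithelium also makes under oestrogen, carried most of their sum, with 24.2 to 318 FPKM in the uteruses. Without Ltf the sum was 3.29 to 4.68 FPKM in the OC and 3.20 to 5.68 in the OT ovaries, and 6.00 to 8.33 and 7.36 to 44.3 in the uteruses, where Retnlg made 39.9 of the 44.3 FPKM in OT1. The part of these cells in the complement levels was not tested. Ovary markers summed to 3462 to 4487 FPKM in the ovaries and to 7.85 to 23.2 in the uteruses, where 2 of 8 were at 0. Uterus markers summed to 939 to 1621 FPKM in the uteruses and to 158 to 449 FPKM in the ovaries, lowest in OT1 in both, so the tissues were told apart by both lists. Hoxa10, a gene of this list, ran from 0.572 FPKM in the OT1 ovary to 53.4 FPKM in the OC2 ovary. In the OT against OC uteruses none of the uterus markers was called, and Hoxa10 (-0.46) and Hoxa11 (-0.45) had an unadjusted p under 0.05. Total FPKM per library was 374816 to 397644 in the ovaries and 425875 to 577494 in the uteruses.

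Of 45 other complement genes listed, 29 had ovarian and 30 had uterine values above the filter and were tested. In the ovary, 0 were called, against 0.368% of all genes called higher and 0.0832% lower. The median log2 fold change was 0.15, against -0.01 over all genes. There 1 of 29, C3ar1, a receptor of the C3a fragment, was higher in OT without overlap (2.78% of all genes). In the uterus, 4 of 30 were called higher and 0 lower, against 2.23% and 0.664% of all genes. The median was 0.13, against 0.01 over all genes. Without overlap, 6 of 30 were higher (6.46% of all genes), Cfd, C6, C7, C3ar1, C1rl and Itgam. The genes called were Cfd (4.003, SE 0.94), the protease factor D that cuts factor B and is also secreted by adipocytes, Fcna (1.68, SE 0.56), a ficolin of the lectin pathway made by macrophages, and C6 (1.40, SE 0.41) and C7 (1.28, SE 0.47) of the membrane attack complex. Their adjusted p by limma was 0.427 to 0.556. Cfd was at 24.5, 83.6 and 89.5 FPKM in the OC uteruses and at 5531, 608, 701 and 295 FPKM in the OT uteruses. The highest value was that of OT1, as for the adipocyte markers. In the ovary, Cfd was at 56.6, 47.2 and 86.2 FPKM in OC1 to OC3 and at 791, 653, 62.8 and 94.2 FPKM in OT1 to OT4. Its ovarian log2 fold change was 1.94 (SE 0.87, unadjusted p = 0.0542 and adjusted p = 0.997 by limma), just short of a call.

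C3, the protein on which both pathways act, was at 106, 173 and 127 FPKM in the OC ovaries and at 137, 310, 144 and 138 FPKM in the OT ovaries. In the uterus it was at 246, 331 and 271 FPKM in the OC libraries and at 480, 1096, 245 and 274 FPKM in the OT libraries. OT2 was the highest library in both tissues, as for Cfb, with log2 fold changes of 0.36 (SE 0.30, ovary) and 0.63 (SE 0.48, uterus), neither of them called. Among regulators, Serping1 (92.5 ± 20.2 FPKM in OC and 95.0 ± 13.3 in OT ovaries, 209 ± 23.0 and 232 ± 64.7 in uteruses), Clu (265 ± 55.9 and 230 ± 18.1, 40.4 ± 5.31 and 54.7 ± 15.3) and Cd55 (33.4 ± 4.19 and 29.0 ± 5.62, 81.6 ± 28.7 and 65.1 ± 15.5) were among the 5 highest other complement genes of a tissue (SD, n = 3 for OC and 4 for OT), and none of them was called. Serping1 inhibits C1r and C1s. Of the 12 regulators tested in the ovary, 5 had a log2 fold change above 0, and of the 13 tested in the uterus also 5. The 7 tested neighbours of C2, Cfb and C4b had medians of 0.02 (ovary) and 0.04 (uterus), with none called.

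**Figure D5:**
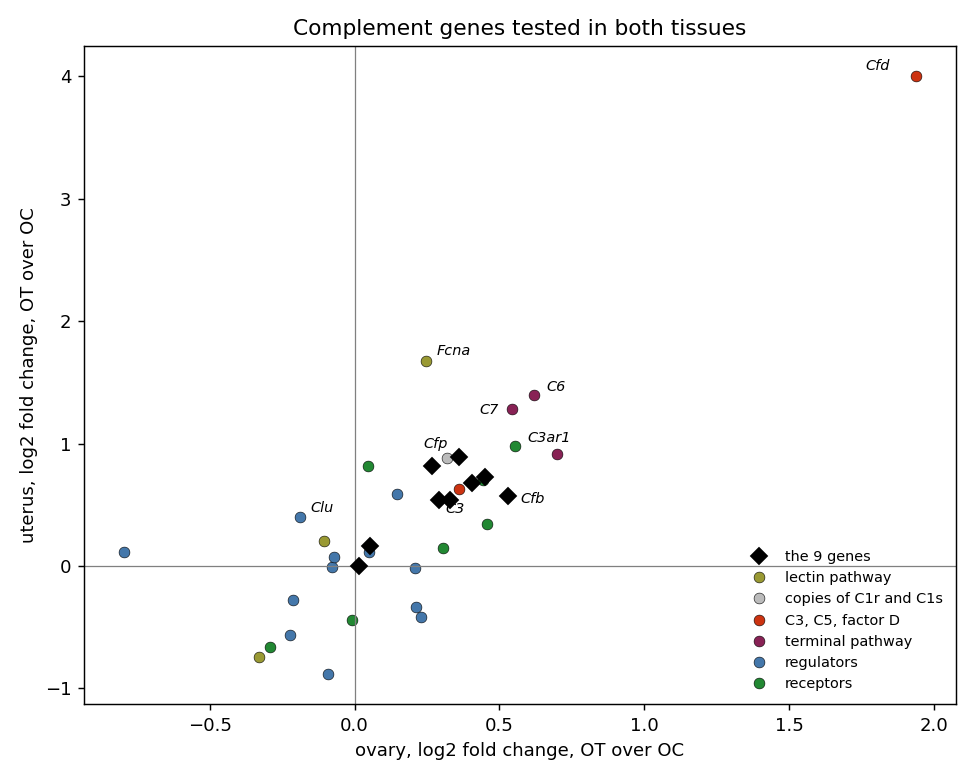
Log2 fold change of OT over OC in the ovary (horizontal axis) and the uterus (vertical axis) for the 9 genes (black diamonds) and 28 other complement genes tested in both tissues (circles, coloured by role). Of the 9 genes, 7 lie at 0.27 to 0.53 on the horizontal and 0.54 to 0.89 on the vertical axis, C1ra and C1s1 lie near the origin, and Cfd stands apart at the upper right.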

How the data were processed

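Stranded libraries had been made from rRNA-depleted total RNA. Per the labels and the methods, the authors used Skewer 0.2.2 for trimming, STAR 2.5 for alignment (mm10) and Cufflinks 2.2.1 for the FPKM. The deposited values were these FPKM of 21853 genes in 14 libraries, grouped by their labels. The FPKM are fractional estimates, so the depth of a library is unknown. All identifiers matched GENCODE release M21 (GRCm38), which gave symbols and positions. The 9 genes, the lists and the tests were chosen with earlier results of these data known.

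Where the mean over the fitted libraries reached 0.5 FPKM, a gene was tested with limma 3.58.1 (lmFit, eBayes with a trend, two-sided) in R 4.3.3 on log2(FPKM + 0.1), with no further scaling. A pseudocount understates the change of genes near 0.1 FPKM. OC and OT were compared within a tissue, at the study's cutoffs of 2-fold and an unadjusted p of 0.05. The tissues, and the difference of the changes, were compared in a fit of all 14 libraries with a mean for each group. That fit had no term for the mouse, so it treated the ovary and the uterus of a mouse as independent. Adjusted p is Benjamini-Hochberg over all genes tested. The steps were tested on simulated data. Exact tests, ratios and motif searches were run in Python 3.11.15 (scipy 1.17.1, numpy 2.4.6, pandas 2.3.3), and plots in matplotlib 3.10.9.

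Genes named beside the 9 were copies of them, other complement genes called in either tissue or among the 5 highest per tissue, and the 5 genes closest to C1q and to C1ra with C1s1. A gene that this rule names is not reported here. Other complement genes without overlap, Cd59b, Tnxb, the single markers named, the sums without Lyz2 or Ltf and the ratio to C1ra were picked after values were seen. Replicate numbers come from the labels. An OC and an OT library of 1 number come from different mice. No label says in words that an ovary and a uterus of 1 group and number come from the same mouse, which was assumed. The deviations of such a pair from their group means correlated by 0.104 on average in OC and 0.169 in OT, and those of differently numbered pairs by -0.0506 and -0.0553. Alternatives were other pseudocounts, filters, scalings and eBayes settings, a fit of both tissues, a replicate block and leaving out each replicate.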

Additional observations from a re-analysis of the deposited data

Results flagged for a closer look

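Cfb in the OT ovaries was the only one of 18 groups of 4 OT libraries (9 genes in 2 tissues) in which a library stood apart by Dixon's ratio. OT2 was at 21.2 FPKM against 6.81 to 7.79 FPKM in the other 3, and its gap to the nearest library took 0.881 of the whole range, above Dixon's 95% critical value for 4 libraries. Chance alone gives such a gap in about 1 in 20 groups. The gap was 0.771 for C4b in the OT ovaries and 0.759 for Cfb in the OT uteruses, again with OT2 highest.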

How the results depend on the processing

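Of the 9 genes, 0 were called in the ovary, and 0 for a difference between the changes of the tissues, under every alternative run. In the uterus 0 were called except with the replicate block and without OT4 (2, C1qb and Cfp) and on leaving out a replicate (0 to 2, the same 2 genes without OT3 or OT4). OC and OT libraries of 1 number come from separate mice, and their deviations correlated by 0.152 (ovary) and 0.0178 (uterus), so the block pairs by number only. The block had to omit OT4, since OC has no such number, and its calls equal those without OT4. Between the tissues, 2 were called except with upper quartile scaling (1, with C4b at 0.98) and without OT3 (1 to 2 over the replicates left out, with C4b at 0.99). A block by mouse left 2 called.

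Other complement genes called in the ovary were 0, 1 with the block (Cfd) and 0 to 1 without a replicate, Cd59b (lower) without OT2 and Cfd without OT3 or OT4. In the uterus they were 4, 2 with a pseudocount of 1, 8 with the block and 3 (without OC3) to 8 (without OT4). Over all genes, a pseudocount of 1 gave 16 higher and 2 lower in the ovary, against 53 and 12, and 202 and 57 in the uterus, against 316 and 94.

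The changes nearest 0 turned sign. With the block, C1s1 was at -0.019 (ovary) and 0.063 (uterus). Without a replicate, ovarian C1ra ran from -0.024 to 0.12, C1s1 from -0.11 to 0.12 and C4b from -0.0028 to 0.42, and uterine C1ra from -0.047 to 0.30 and C1s1 from -0.17 to 0.091. The difference between the changes ran from -0.023 to 0.27 for C1ra, from -0.12 to 0.082 for C1s1, from -0.072 to 0.44 for C2 and from -0.31 to 0.57 for Cfb. The cause was not tested. The values counted under the alternatives were those of single genes, together with the medians over the genes described. Of these values, 597 kept their direction and side of the threshold, 23 turned sign, 6 passed the threshold and 2 fell short of it. The depth of the libraries is unknown, and 3 against 4 mice limit what can be called.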
